A study of Mus musculus with 13 samples.

Results

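The immediate early transcription factors described here are 10 genes, Fos, Fosb, Fosl1, Jun, Junb, Atf3, Egr1, Egr2, Egr3 and Ier2, out of 54532 genes in the count table. They were matched by symbol, through the Ensembl identifier of each row, and all 10 were found. Immediate early genes are transcribed within minutes of a growth factor, stress or calcium signal, without new protein synthesis. The signal reaches them largely through the ERK, p38 and JNK kinases, which act on factors bound at serum response elements and cAMP response elements close to the transcription start. Their mRNAs are made in short bursts and decay quickly, in part through AU-rich elements in the 3′ UTR.

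The proteins fall into families with different tasks. FOS, FOSB and FOSL1 (also called FRA1) pair with JUN or JUNB to form AP-1, a dimer that binds sites with the letters TGA in promoters and enhancers, and FOS does not form stable dimers without such a partner. ATF3 belongs to the ATF/CREB family, is induced by many stresses and can repress its targets. EGR1, EGR2 and EGR3 are zinc finger proteins that bind GC-rich promoter sites, and IER2 is a nuclear protein of the same early response. In melanoma, signalling from an activated BRAF through ERK feeds into several of these genes, FOSL1 among them.

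RNA came from Yumm1.7, a mouse melanoma cell line whose genotype the labels give as WT. Cells received DMSO (the solvent), ADAR1i-124 (10 μM, 12 h), 5-Aza-CdR (1 μM, 72 h), or both in combination. The labels state no dose or time for the combination, and by the study's description 5-Aza-CdR (1 μM, 72 h) came first and ADAR1i-124 (10 μM) was added for a further 12 h. ADAR1i-124 is a small molecule that inhibits ADAR1, the enzyme that edits adenosine to inosine in double-stranded RNA, and 5-Aza-CdR (decitabine) is an inhibitor of DNA methyltransferases. The series holds total RNA libraries, libraries of RNA precipitated with J2, an antibody against double-stranded RNA, or with Z22, an antibody against Z-form RNA, and 1 control precipitation with IgG, for which the sources do not state the treatment of the cells.

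There were no replicates: each condition was 1 library of 1 cell line, so no difference below was tested against biological spread and no p-value is given. Every interval is an exact 95% interval for counting error only, for levels a Poisson interval and for ratios of 2 libraries a Clopper-Pearson interval. Levels are in CPM, counts scaled to 1e6 gene counts a library. A difference is the log2 ratio of CPM + 0.5, and its interval is that of the plain ratio, so that for a gene of few counts the difference can lie near an end of the interval. In these bulk libraries, a change in the number of cells that hold an mRNA and a change in the amount per cell cannot be told apart. Total counts were 17015425 to 34571822 in the 3 total RNA libraries used and 8167960 to 15324595 in the 9 precipitated libraries. The total RNA library of the combination held 1245894 counts, of which 22.6% fell in genes annotated as antisense, against 0.106% to 0.176% in the other 12 libraries. Of 3505 coding genes at 50 CPM or more in each of the other 3 total RNA libraries, 93.3% were at least 2-fold lower in it. Its counts thus followed the opposite strand, and it was left out of every comparison. The Z22 library of DMSO stood apart from the others: Gm42418, a gene that overlaps ribosomal RNA sequence, took 34.9% of its counts, against 10.6% to 15.8% in the other Z22 libraries. Of 9 melanocyte lineage markers, 7 were under 3 counts in every library, Tyr, Tyrp1 and Mlana among them, and the lineage factor Mitf was the only one to reach 1 CPM. Of 7 fibroblast markers, 6 reached 1 CPM in a library and Thy1 had no count in the comparisons below. Their summed level ran from 199.8 CPM (Z22, 5-Aza-CdR) to 1936 CPM (Z22, DMSO). Epithelial markers summed to at most 30.5 CPM and leukocyte markers to at most 77.9 CPM in any library.

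Promoter windows of the members were searched for elements through which signals are known to reach immediate early genes, and a few sites are printed because the later results turn on the genes they belong to. RefSeq promoter windows of GRCm38.p6 (from 250 bases before to 50 bases after a transcript start) were at hand for 6 members, Fos, Fosb, Jun, Junb, Egr2 and Atf3, with 10 windows in all, and not for Fosl1, Egr1, Egr3 and Ier2. The CArG box, the core of the serum response element, was found on either strand in 1.63% of all 32817 windows and in 4 of the 10 member windows, all of Egr2. The letters TGACG, which begin the cAMP response element that CREB and ATF proteins bind, occurred on either strand in 20.8% of all windows and in 7 of the 10 member windows, which belonged to 5 of the 6 genes, all but Jun. The full palindrome TGACGTCA was in 1.79% of all windows and in no member window. In the sequences below, which are written 5′ to 3′ on the strand of the gene, capitals mark the motif, and CGTCA is TGACG read from the other strand.
Egr2, CArG box, chr10:67537787-67537816, plus strand: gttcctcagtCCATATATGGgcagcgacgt
Egr2, CArG box upstream of the first, chr10:67537484-67537513, plus strand: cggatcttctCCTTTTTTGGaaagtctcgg
Fos, TGACG, chr12:85473814-85473838, plus strand: ttccgcccagTGACGtaggaagtcc
Fosb, TGACG, chr7:19310091-19310115, minus strand: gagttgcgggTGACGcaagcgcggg
Junb, TGACG, chr8:84978840-84978864, minus strand: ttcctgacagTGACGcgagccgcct
Atf3, TGACG on the other strand, chr1:191183326-191183350, minus strand: aatagcattaCGTCAgcctgggatt
The TGACG printed for Fos began 66 bases before the transcript start, that of Fosb 60 bases, that of Junb 106 bases and that of Atf3 7 bases. Fos held another TGACG 129 bases before the start. The Fos window also held TATAAA 33 bases before the start, a motif present in 8.32% of all windows. A Junb window held TATAAA at the start itself. A match to these letters describes the window and does not show that a factor bound it. Motifs more than 250 bases before a start lie outside the windows, so a gene without a match here may still hold one.

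The transcripts of the members were short, with few exons. In GENCODE M21, their longest coding transcripts had a median of 2 exons (1 to 4), against 9 exons over 11492 coding genes that averaged 1 CPM or more, and the median gene length was 5287 bases against 24952. The coding transcripts of Jun, Junb and Ier2 had 1 exon. In the 3′ UTR, 9 of the 10 members held the AU-rich pentamer ATTTA, all but Ier2, where 71.0% of 11405 coding genes did, and 77.6% of those with a 3′ UTR in the length range of the members. The median density was 2.52 pentamers per kb of 3′ UTR against 1.36 over these coding genes. Egr3 had 7 pentamers, and Fos and Jun had 4 each. The nonamer TTATTTATT, which the decay factor tristetraprolin (Zfp36) binds, was found in Fos alone of the members and in 8.45% of the coding genes. The Fos site lies in the last part of its 3′ UTR in GRCm38, on the plus strand, with the nonamer in capitals.
Fos, chr12:85477103-85477131: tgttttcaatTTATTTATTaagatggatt

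Several members share ground with a gene on the other strand, and the strand setting of the counting is not given in the sources used here. Fosl1 (chromosome 19, 5447547 to 5455946, plus strand) overlaps 2767 bases of Ccdc85b, which had at most 41 counts in any of the 12 libraries. Jun (chromosome 4, 95049034 to 95052222, minus strand) overlaps 689 bases of the antisense transcript Junos, which had 277 counts beside 512 of Jun in total RNA of DMSO. Junb (chromosome 8, 84974484 to 84978718, minus strand) overlaps 351 bases at its 3′ end with Prdx2, which had 2114 counts beside 40 of Junb in that library. That overlap lies in a non-coding transcript of Junb and not in the coding one.

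In total RNA, 10 of 10 members were higher after ADAR1i-124 than after DMSO, beyond counting error in each case, and 8 of them by 2-fold or more. The background was 13693 genes that averaged 1 CPM or more in the 2 libraries: 44.0% of them were higher, 7.71% by 2-fold or more, and 8.7% were lower by as much. The median difference of the members was 2.20 on the log2 scale, that of the background -0.09. The AP-1 subunits JUNB and FOSL1 and the zinc finger factor EGR1 led the group, and Fos itself was among the members that differed least. Here and below, comparisons within a set of libraries share its DMSO library. The DMSO library of total RNA was the lowest of the 12 libraries for 6 of the members, and its part in the total RNA differences was not tested.

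Among the AP-1 subunits, Junb was at 2.35 CPM (40 counts) with DMSO and at 71.0 CPM (1250 counts) with ADAR1i-124, a difference of 4.65 (4.46 to 5.41), or 30.2-fold on the plain ratio. Fosl1 went from 53.1 to 349 CPM, a difference of 2.71 (2.62 to 2.82). Jun went from 30.1 to 165 CPM, a difference of 2.44 (2.32 to 2.59). These were the AP-1 subunits with the largest differences, and FOSL1 and JUN were also the most abundant. Fosb, from 7.46 to 38.6 CPM, differed by 2.30 (2.10 to 2.65). Fos, at 3.35 CPM (57 counts) and 7.04 CPM, differed by 0.97 (0.61 to 1.55) and lay just inside the 2-fold line on this scale. Atf3, the stress-induced member of the ATF/CREB family, was at 8.64 CPM with DMSO and at 38.6 CPM with ADAR1i-124, a difference of 2.10 (1.90 to 2.43).

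The EGR factors differed by 0.94 to 3.39. Egr1, the most abundant of them, was at 7.52 CPM with DMSO and at 83.7 CPM with ADAR1i-124, a difference of 3.39 (3.21 to 3.75). Egr3 was at 1.06 and 3.97 CPM, a difference of 1.52 (1.15 to 2.74). Egr2 rested on 7 and 22 counts, the only member with a mean under 1 CPM, and differed by 0.94 (0.32 to 3.07). Ier2, at 6.05 and 26.6 CPM, differed by 2.05 (1.83 to 2.46).

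5-Aza-CdR gave a different order with a similar number of members. In total RNA, 9 of the 10 were at least 2-fold higher than with DMSO, where the background was 17.0% of 14391 genes (53.0% higher by any amount and 8.96% at least 2-fold lower), and the median difference was 1.86 against 0.06 over all these genes. Junb again had the largest difference, 4.23 (4.04 to 4.98), at 52.9 CPM. Egr3 came next, from 1.06 CPM (18 counts) with DMSO to 23.7 CPM (819 counts), a difference of 3.96 (3.82 to 5.25). Egr1 reached 113 CPM, a difference of 3.82 (3.65 to 4.17), and Egr2 reached 4.40 CPM (152 counts), a difference of 2.43 (2.34 to 4.76). All 3 EGR factors, which include the Schwann cell and lymphocyte regulator EGR2, were therefore past 4-fold with 5-Aza-CdR (background 5.98%), and Egr1 alone of them with ADAR1i-124 (background 1.88%).

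The AP-1 subunits other than Junb differed from DMSO by 1.34 to 2.0 with 5-Aza-CdR. Jun was at 122 CPM, a difference of 2.0 (1.88 to 2.15), and Fosl1 at 177 CPM, a difference of 1.73 (1.63 to 1.84). Fosb was at 25.1 CPM, a difference of 1.68 (1.48 to 2.03), and Fos at 9.26 CPM, a difference of 1.34 (1.06 to 1.90). Ier2 was at 21.3 CPM, a difference of 1.73 (1.51 to 2.12). Atf3 was the exception, at 8.64 CPM with DMSO and 10.2 CPM with 5-Aza-CdR, a difference of 0.22 whose interval of -0.05 to 0.52 included 0. Fosl1, Jun, Fosb, Junb, Ier2 and Atf3 thus had their higher total RNA level with ADAR1i-124, and Fos and the 3 EGR factors with 5-Aza-CdR. The intervals of the Fos levels overlapped. The treatments differed in both time and dose, so these levels are set side by side only.

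**Figure D1:**
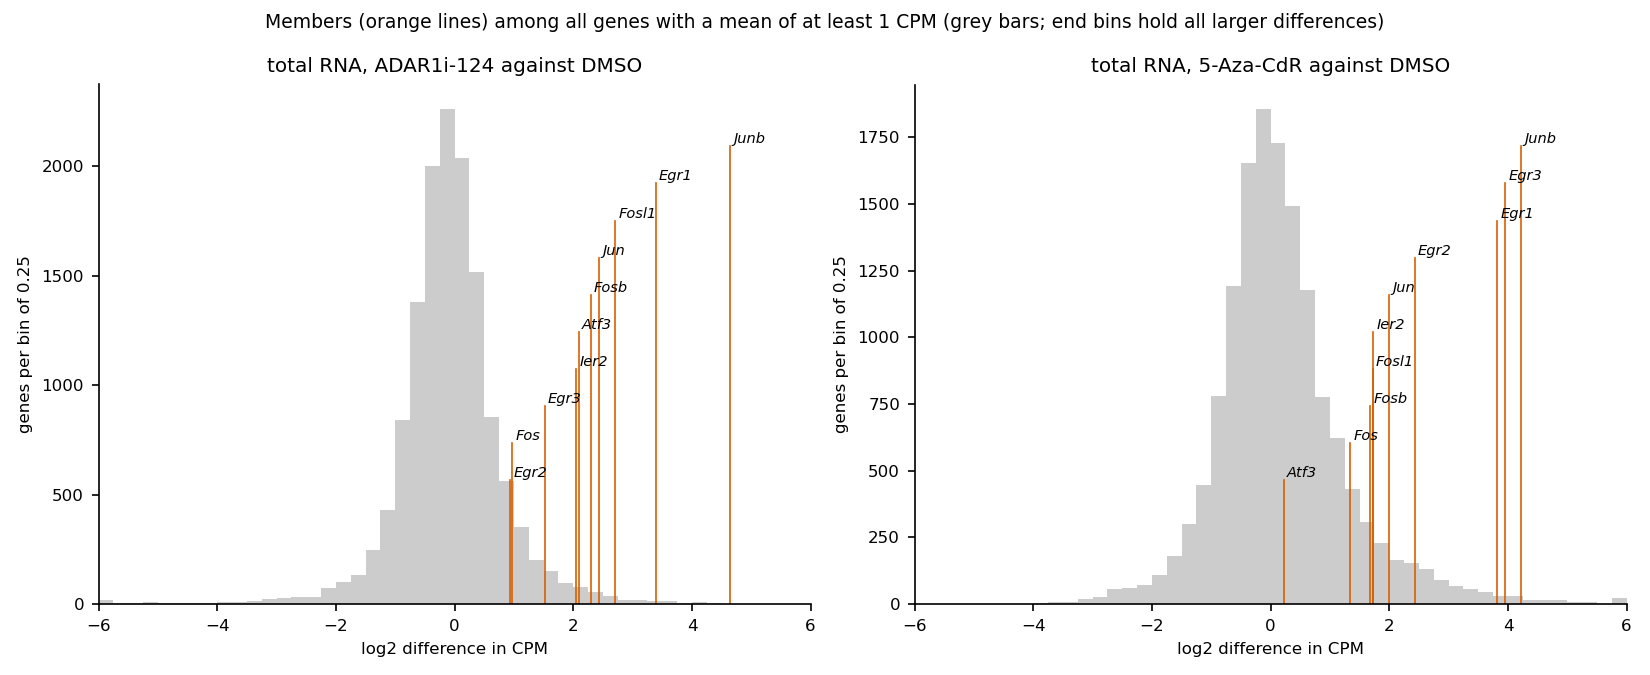
Histograms of the log2 difference in CPM from DMSO in total RNA for the genes that averaged 1 CPM or more (grey, number of genes per bin of width 0.25, left ADAR1i-124, right 5-Aza-CdR), with each member as an orange line whose height only separates the names. All 10 lines lie to the right of 0 in both panels, from 0.94 (Egr2) to 4.65 (Junb) with ADAR1i-124 and from 0.22 (Atf3) to 4.23 (Junb) with 5-Aza-CdR.

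Levels of different genes were compared per kb of exon. Fosl1 was the highest member in each of the 3 total RNA libraries, at 26.1 CPM per kb with DMSO, 172 with ADAR1i-124 and 86.9 with 5-Aza-CdR. Jun was next in each, at 9.44, 51.7 and 38.1 CPM per kb. Below them the order depended on the treatment: Atf3 and Ier2 came next with DMSO, at 4.01 and 3.98 CPM per kb with overlapping intervals. Junb was in the eighth place with DMSO, at 1.02 CPM per kb, where its interval overlapped that of Fosb. It was in the third place with ADAR1i-124, at 30.8 CPM per kb, and in the fourth with 5-Aza-CdR, at 23.0, with intervals that overlapped neither neighbour. Egr1, Atf3 and Ier2 followed with ADAR1i-124, at 18.7, 17.9 and 17.5 CPM per kb, and each of them overlapped its neighbour in that order. With DMSO, Egr1, Fos, Fosb and Junb followed each other with overlapping intervals, as did Egr3, Atf3, Fosb and Fos with 5-Aza-CdR. Egr2 was the lowest member in all 3 libraries, and with DMSO its interval overlapped that of Egr3.

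Within the families, Fosl1 made up most of the FOS group in all 3 libraries, and the share of Junb in the JUN pair was higher with either treatment. Fosl1 made up 90.9% of the summed CPM per kb of Fos, Fosb and Fosl1 with DMSO, 94.9% with ADAR1i-124 and 91.6% with 5-Aza-CdR. Fos made up 4.96%, 1.65% and 4.15% in the same order. Junb made up 9.77% of the sum of Jun and Junb with DMSO, 37.3% with ADAR1i-124 and 37.6% with 5-Aza-CdR. Of the EGR sum, Egr1 made up 82.3%, 93.6% and 79.0%, and Egr3 11.8%, 4.53% and 16.9%, in the same order. These shares describe mRNA, and proteins were not measured in these libraries.

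**Figure D2:**
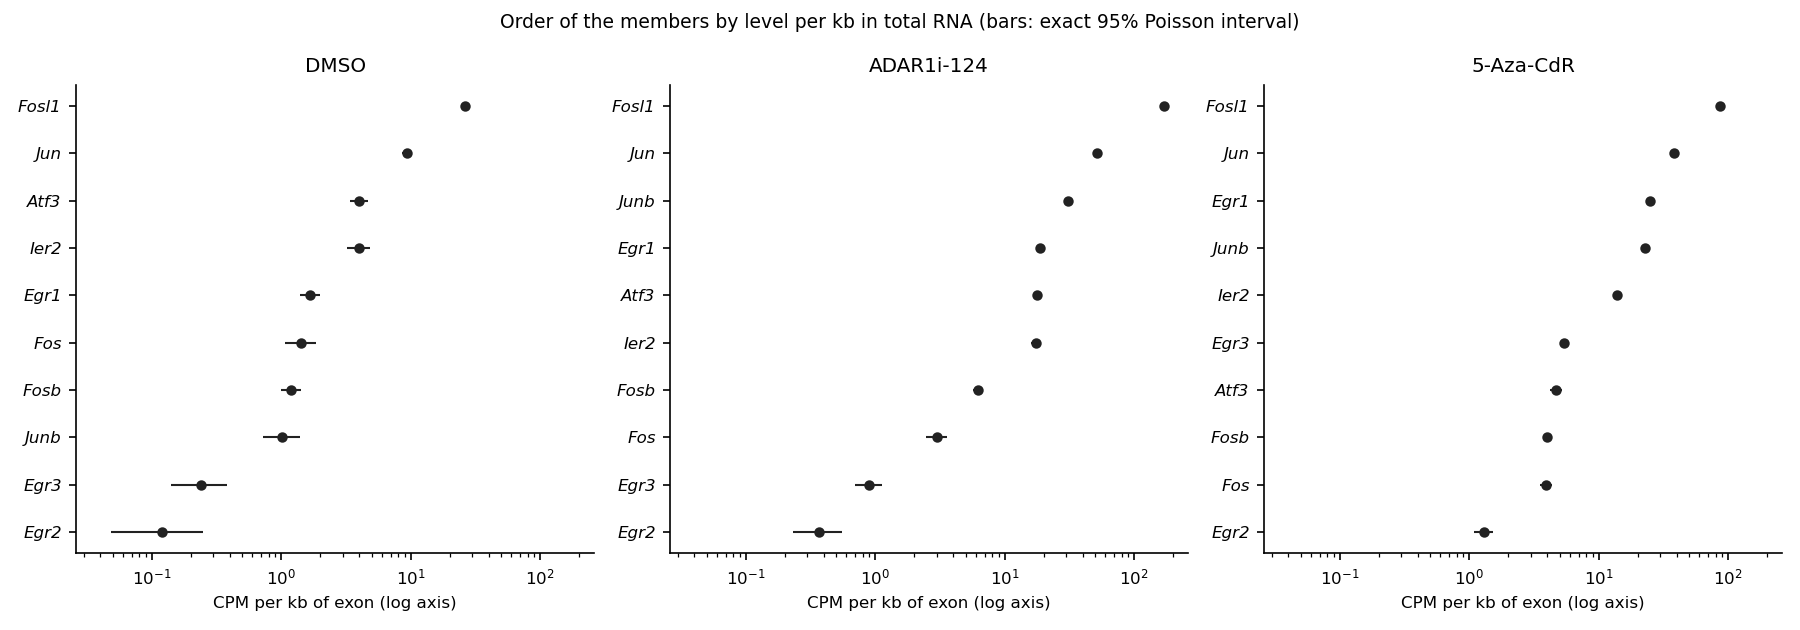
Level of each member in CPM per kb of exon (log axis) in total RNA of DMSO, ADAR1i-124 and 5-Aza-CdR, sorted from highest to lowest, with exact 95% Poisson intervals. Fosl1 (26.1, 172 and 86.9) and Jun (9.44, 51.7 and 38.1) are at the top of all 3 panels, and Junb stands in the eighth, the third and the fourth place.

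Other immediate early genes, a list of 25 that encode further early transcription factors, phosphatases and secreted proteins, went the same way in total RNA of ADAR1i-124. For this list and those that follow, the shares over all genes are again 7.71% at least 2-fold higher and 8.7% lower with ADAR1i-124, and 17.0% and 8.96% with 5-Aza-CdR. Of the 22 that averaged 1 CPM or more, 14 were at least 2-fold higher and none was as much lower, with a median of 1.29. Ptgs2, which encodes the prostaglandin synthase COX-2, was at 435 CPM with DMSO and 3090.0 CPM with ADAR1i-124 and differed by 2.83. Zfp36, whose protein binds AU-rich elements and triggers mRNA decay, differed by 2.19. Ccn2, a target of the MRTF and YAP coactivators, differed by 2.13, and Ier5l by 2.04. With 5-Aza-CdR, 14 of 23 were at least 2-fold higher and 2 were as much lower, which were Ccn2 (-3.67) and Ccn1 (-2.59). Ier5l (2.70) and Zfp36 (2.35) were the largest of those that were higher.

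AP-1 and ATF subunits that are not classed as immediate early genes stood apart from the members. Of 9 that averaged 1 CPM or more, 2 were at least 2-fold higher with ADAR1i-124, Fosl2 (1.36) and Jund (1.15), none was 2-fold lower, and the median was 0.25. With 5-Aza-CdR, 2 of 10 were higher, Batf2 (2.63) and Fosl2 (1.13), 1 was lower, Atf4 (-1.51), and the median was -0.20. Atf4 is the effector of the integrated stress response. The factors that act on the promoters of immediate early genes were likewise near 0 as a list: of 10, 2 were at least 2-fold higher with ADAR1i-124, the SRF coactivator Mrtfa (1.55) and Srf (1.03), and 1 with 5-Aza-CdR, Mrtfa again (1.03).

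Genes that ERK signalling is known to induce as its own feedback were split. With ADAR1i-124, 3 of 12 were at least 2-fold higher, the ERK phosphatase genes Dusp5 (3.01) and Dusp4 (1.99) and Phlda1 (1.65), and 2 were lower, among them Spry1 (-1.52). The median was -0.02. With 5-Aza-CdR, 6 of 12 were higher, led by Dusp5 (2.48), Dusp4 (2.03) and Dusp6 (1.40), and Spry1 (-1.33) was lower, with a median of 0.85.

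Known AP-1 target genes differed in opposite directions with ADAR1i-124: 4 of 12 were at least 2-fold higher, among them the haem oxygenase gene Hmox1 (4.49), the collagenase gene Mmp13 (4.11) and the urokinase receptor gene Plaur (3.16), and 3 were at least 2-fold lower, among them osteopontin, Spp1 (-2.89). Their median was 0.51. With 5-Aza-CdR, 11 of 12 were at least 2-fold higher, with a median of 1.83, led by the matrix metalloproteinase genes Mmp9 (3.90) and Mmp10 (3.67). EGR corepressors and targets had a median of 0.83 with ADAR1i-124, where Thbs1 (1.79), Pdgfa (1.41) and Tgfb1 (1.41) made up the 3 of 7 at least 2-fold higher, and of 0.73 with 5-Aza-CdR, where 3 of 7 were at least 2-fold higher, led by Tgfb1 (2.79). Of 10 factors of AU-rich mRNA decay, Zfp36 (2.19) and Zfp36l2 (1.19) were at least 2-fold higher with ADAR1i-124, and the median was -0.12. With 5-Aza-CdR 2 of 10 were higher, 1 was lower, Hnrnpd (-1.08), and the median was 0.02. Summed fibroblast markers were at 1283 CPM with DMSO, 488.7 with ADAR1i-124 and 1527 with 5-Aza-CdR, and summed leukocyte markers, mainly Cd68, at 8.64, 20.5 and 77.9 CPM. Of the fibroblast markers, Col3a1 was lower (-3.21 with ADAR1i-124 and -0.50 with 5-Aza-CdR), while Col1a2 (2.44 and 2.51) and Pdgfra (2.18 and 4.72) were higher with both, and Col1a1 (3.35) and Dcn (7.16, from 7 counts) were higher with 5-Aza-CdR. Of the fibroblast markers that averaged 1 CPM, 2 of 4 were at least 2-fold higher with ADAR1i-124 and 4 of 5 with 5-Aza-CdR. The part of these markers in the results was not tested.

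**Figure D3:**
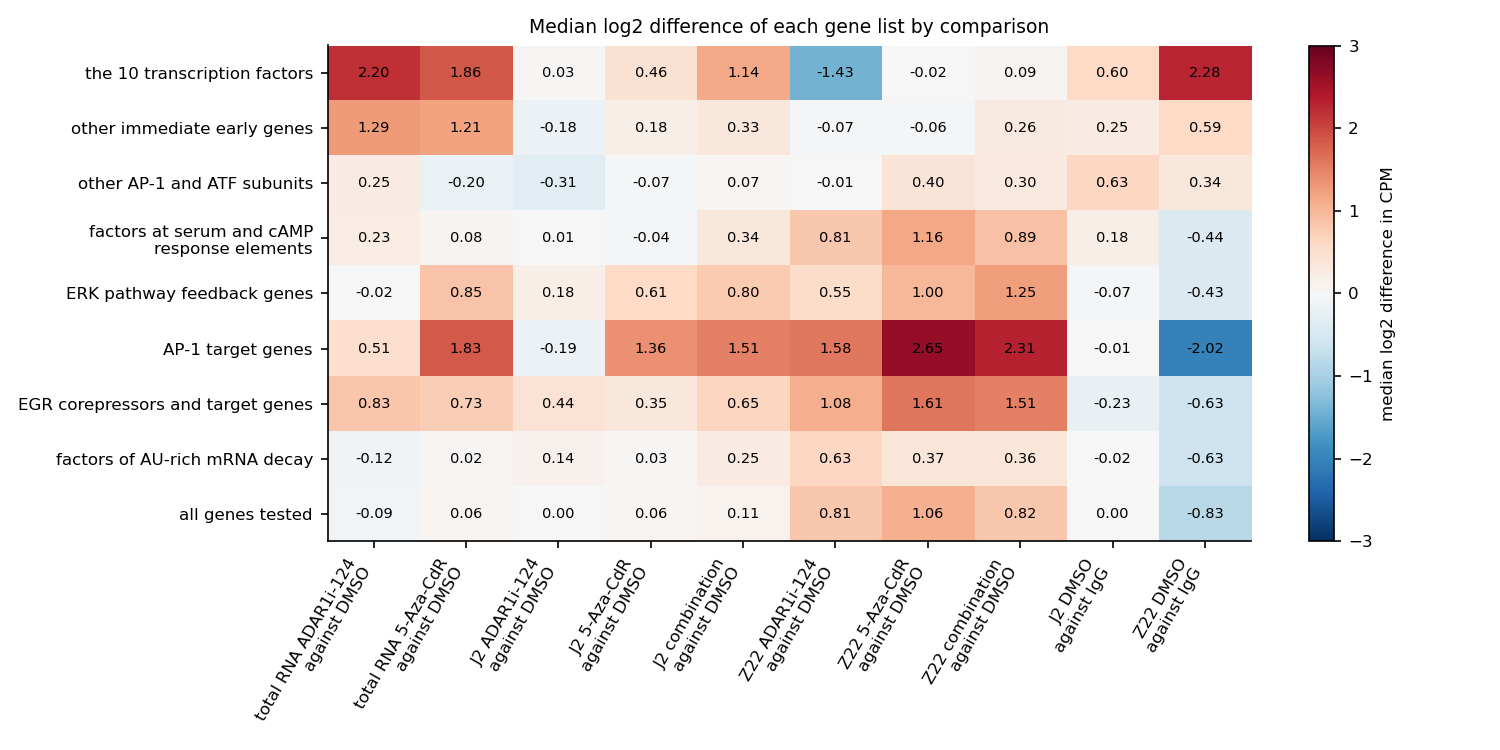
Median log2 difference in CPM of the 10 transcription factors and 7 related gene lists (rows, without the marker lists of other cell types) in each of 10 comparisons (columns), with the value printed in each cell and the bottom row for all genes tested. The 10 transcription factors have the largest medians of these 8 rows in total RNA (2.20 with ADAR1i-124 and 1.86 with 5-Aza-CdR), and a median of -1.43 for ADAR1i-124 in Z22, where all genes have 0.81.

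In the J2 precipitates, differences of 2-fold between ADAR1i-124 and DMSO were about as rare among the members as over all genes. None of the 10 was at least 2-fold higher, where the background was 7.37% of 13522 genes, and 1 was at least 2-fold lower (background 10.8%), with a median of 0.03. That member was Atf3, at 23.8 CPM with DMSO and 8.06 CPM with ADAR1i-124, a difference of -1.51 (-1.89 to -1.25). The other 9 lay between -0.47 (Fos) and 0.62 (Jun). Of the 10 intervals, 3 lay above 0, 2 below 0 and 5 across it. Junb, which had the largest difference in total RNA, was at 21.8 CPM with DMSO and 15.7 CPM with ADAR1i-124, a difference of -0.46 (-0.74 to -0.21). Egr1 was at 30.1 and 26.4 CPM, a difference of -0.19 (-0.40 to 0.02), so counting error alone covered it. Leukocyte markers, mainly Cd68, summed to 60.25 CPM in J2 of DMSO and 7.085 CPM with ADAR1i-124. With 5-Aza-CdR and the combination they summed to 18.35 and 19.29 CPM. The part of leukocyte markers in the J2 differences was not tested.

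With 5-Aza-CdR, 4 members were at least 2-fold higher in J2 than with DMSO, against a background of 8.61% of 14007 genes, none was at least 2-fold lower (background 6.0%), and all 10 were above 0 (background 54.0%). Fos, at 2.22 CPM (27 counts) and 7.22 CPM (96 counts), differed by 1.51 (1.07 to 2.38). Egr3 differed by 1.36 (0.90 to 2.24), Egr1 by 1.32 (1.16 to 1.51) and Fosb by 1.25 (0.93 to 1.72). Junb (0.50), Ier2 (0.42), Jun (0.41), Atf3 (0.30), Egr2 (0.21, across 0) and Fosl1 (0.16) were within 2-fold. Epithelial markers differed in the same libraries: Krt8 and Krt18 summed with the others of that list to 0.16 CPM in J2 of DMSO, 30.5 CPM with 5-Aza-CdR and 21.8 CPM with the combination, and their part in the results was not tested.

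The combination gave the highest J2 levels of most members. Against DMSO, 6 of 10 were at least 2-fold higher, with a background of 8.21% of 14158 genes, and none was at least 2-fold lower (3.88%). The median was 1.14 against 0.11 over all these genes. Junb, at 80.1 CPM, differed by 1.85 (1.68 to 2.08). Egr1, at 92.3 CPM, differed by 1.60 (1.44 to 1.79), and Egr3 (1.57), Fos (1.25), Fosb (1.21) and Ier2 (1.06) were the others past 2-fold. Set against 5-Aza-CdR alone within J2, where 1.44% of 14196 genes were at least 2-fold higher, Junb was the 1 member that high, with 31.0 and 80.1 CPM and a difference of 1.36 (1.20 to 1.54). Ier2 (0.64), Jun (0.54), Fosl1 (0.53), Egr1 (0.28) and Atf3 (0.21) had intervals above 0 in that comparison, and those of Fos (-0.26), Fosb (-0.05), Egr2 (0.38) and Egr3 (0.21) included 0. Summed fibroblast markers in J2 were at 1562 CPM with DMSO and at 210.6 to 290.3 CPM with the treatments. With the combination Col1a2 (-3.52), Col3a1 (-2.47) and Pdgfra (-0.70) were lower than with DMSO, and Col1a1 (0.65) and Dcn (0.99) were higher. Against 5-Aza-CdR alone, Col1a2 (2.39) and Pdgfra (1.25) were at least 2-fold higher, and no fibroblast marker was as much lower. The part of these markers in the J2 differences was not tested.

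In the Z22 precipitates the members of the DMSO library were high. Before the treated libraries are compared with it, its levels are given beside those of IgG, which were 1.37 CPM for Fos, 2.87 for Fosb, 13.6 for Egr1 and 0.46 for Egr2. Egr1 was at 218 CPM in Z22 of DMSO, its highest level of the 12 libraries, with a difference of 3.95 (3.79 to 4.21) from IgG. Fosb was at 46.0 CPM, a difference of 3.78 (3.55 to 4.48), Fos at 16.5 CPM, a difference of 3.18 (2.92 to 4.33), and Egr2 at 7.91 CPM, a difference of 3.13 (2.99 to 5.48). Egr3 (2.49), Junb (2.07), Ier2 (1.51) and Fosl1 (1.26) were also at least 2-fold higher than in IgG. That made 8 of 10 members against a background of 11.3% of 12558 genes, in a comparison where all genes had a median of -0.83 and 45.4% were at least 2-fold lower. With TMM or DESeq2 scaling 9 members were at least 2-fold higher, where 20.8% and 24.0% of all genes were, and 30.9% and 26.7% of all genes were at least 2-fold lower. Atf3 (0.87) was within 2-fold, and Jun was at 48.2 CPM in Z22 and 44.8 CPM in IgG, a difference of 0.10 (-0.07 to 0.28). Summed fibroblast markers were at 1936 CPM in this Z22 library and 352.7 CPM in IgG, and their part in the difference was not tested.

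In J2 of DMSO, 2 of 10 members were at least 2-fold higher than in IgG, Junb (1.70) and Egr1 (1.11), with a background of 13.5% of 13293 genes, none was at least 2-fold lower (8.97%), and the median was 0.60. Fosb lay at the line, with 1.0 (0.57 to 1.69). With totals that leave out the 20 highest genes, 4 members were at least 2-fold higher, where 15.7% of all genes were. For the other treatments in J2, 3 members were at least 2-fold higher than IgG with ADAR1i-124 (background 5.63%) and Atf3 was at least 2-fold lower (8.06 against 17.5 CPM, background 4.46%), and at least 2-fold higher were 6 in the 5-Aza-CdR library (13.0%) and 9 in that of the combination (17.9%), all but Atf3 (0.93). In Z22 the counts were 6 for ADAR1i-124 (7.15%), 8 for 5-Aza-CdR (21.4%) and 9 for the combination (17.0%), all but Egr3 (0.90). Junb with the combination stood at 80.1 CPM in J2 and 86.5 CPM in Z22 beside 6.39 CPM in IgG. Because all of these share the 1 IgG library, the counts are not independent of each other. Summed fibroblast markers were at 1562 CPM in J2 of DMSO, 210.6 to 290.3 CPM in the treated J2 libraries and 352.7 CPM in IgG. In J2 of the combination, Col1a1 (3.18), Dcn (2.82) and Pdgfra (1.52) were higher than in IgG, and Col1a2 (-1.33) and Col3a1 (-0.35) lower. Leukocyte markers summed to 60.25 CPM in J2 of DMSO and 17.1 in IgG, and epithelial markers to 30.46 in J2 of 5-Aza-CdR and 0.3263 in IgG. Their part in the differences from IgG was not tested.

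With ADAR1i-124, the Z22 levels of Fos, Fosb, Atf3 and the 3 EGR factors were lower than with DMSO. Of 10 members, 6 were at least 2-fold lower, where the background was 5.13% of 12799 genes, and none was at least 2-fold higher, where it was 42.9%. The median difference was -1.43, while the median over all these genes was 0.81. Fos was at 16.5 CPM (144 counts) with DMSO and 2.25 CPM (33 counts) with ADAR1i-124, a difference of -2.63 (-3.47 to -2.32). Egr1 was at 218 CPM (1901 counts) and 46.6 CPM (683 counts), a difference of -2.21 (-2.35 to -2.10). Egr2, at 7.91 CPM (69 counts) and 0.55 CPM (8 counts), differed by -3.01 (-5.12 to -2.80). Fosb (-2.02), Atf3 (-1.52) and Egr3 (-1.34) were the others.

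Fosl1 (0.08), Ier2 (-0.03) and Junb (-0.24) differed little in that comparison, and Jun was higher, at 48.2 CPM with DMSO and 87.3 CPM with ADAR1i-124, a difference of 0.85 (0.70 to 1.02). Relative to the median of all genes, 9 of the 10 were lower with ADAR1i-124, and Jun was 0.04 above it. With the DESeq2 size factors, which bring the median of all genes to 0.01, 7 members were at least 2-fold lower, where 17.8% of all genes were, and the median of the members was -2.28. Over the 7 members that averaged 10 CPM or more, on library totals, 3 were at least 2-fold lower, where 4.45% of all genes with that mean were, and the median was -0.24. The sign of Jun and of Fosl1 depended on the scaling: Jun ranged from -0.01 to 0.85 and Fosl1 from -0.78 to 0.08 over the alternatives. Fibroblast markers were lower with them, at a sum of 1936 CPM in Z22 of DMSO and 504.9 CPM in Z22 of ADAR1i-124, mainly Col1a2 (1053 and 113.9 CPM) and Col3a1 (803.7 and 376.3 CPM), and their part in the result was not tested.

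Of the other immediate early genes, 4 of 23 were at least 2-fold lower in this comparison and 1 was at least 2-fold higher, with a median of -0.07, where 5.13% of all genes were lower, 42.9% were higher and the median was 0.81. The orphan nuclear receptor gene Nr4a1 was at 49.0 CPM with DMSO and 7.64 CPM with ADAR1i-124, a difference of -2.61. Klf4 (-2.09) and the synaptic gene Arc (-1.37) were lower as well, and Klf10 (1.68) was higher. In Z22 of DMSO against IgG, Nr4a1 (3.60), Arc (2.63) and Klf4 (2.42) were high and Klf10 (-1.71) was low. These comparisons share the Z22 library of DMSO, so that a level particular to that library enters both with opposite sign. Of the AP-1 and ATF subunits outside the members, Atf5 (-2.69) had the largest difference, at 373.5 CPM with DMSO and 57.4 CPM with ADAR1i-124.

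With 5-Aza-CdR in Z22, 2 members were at least 2-fold lower than with DMSO, where the background was 4.10% of 13716 genes, and none was at least 2-fold higher, where it was 52.1%. These were Egr1, at 84.6 CPM, with a difference of -1.36 (-1.49 to -1.24), and Egr2, at 1.96 CPM, with -1.77 (-2.90 to -1.21). The other 8 lay between -0.27 (Ier2) and 0.38 (Jun), and all 10 were below the median of all genes, 1.06. Fos was at 16.5 CPM with DMSO and 17.4 CPM with 5-Aza-CdR, and Fosb was at 46.0 and 59.1 CPM, the highest levels of either gene in the 12 libraries. Fos, Fosb, Fosl1, Jun and Egr3, which were above 0 here, were below 0 with TMM or DESeq2 scaling. With either, 5 members were at least 2-fold lower, where 16.2% (TMM) and 18.5% (DESeq2) of all genes were, and none was at least 2-fold higher, where 24.4% and 21.7% were. Epithelial markers summed to 0 CPM in Z22 of DMSO, 22.8 CPM with 5-Aza-CdR and 10.6 CPM with the combination, and fibroblast markers to 1936, 199.8 and 258.9 CPM. Leukocyte markers, mainly Cd68, summed to 15.7, 41.63 and 55.1 CPM in the same order. The part of these markers in the Z22 differences was not tested.

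The combination divided the members in Z22. Junb, at 28.5 CPM with DMSO and 86.5 CPM with the combination, was 1.58 higher (1.39 to 1.81), Jun 1.25 higher (1.09 to 1.42) and Atf3 1.02 higher (0.83 to 1.24). Lower were Egr3, with a difference of -1.58 (-2.32 to -1.13), Fos with -1.54 (-2.12 to -1.15) and Egr2 with -1.20 (-2.0 to -0.67). The background was 43.4% of 13276 genes past 2-fold upwards and 5.03% downwards, and the median of all genes was 0.82 against 0.09 for the members. With TMM or DESeq2 scaling, none was at least 2-fold higher (23.2% and 20.1% of all genes) and 5 were at least 2-fold lower (14.7% and 17.7%). Ier2 (0.55) was below 0 with both, and Fosl1 (0.77) with DESeq2 (-0.09) but not with TMM (0.05).

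Comparisons of treated Z22 libraries with each other do not involve the DMSO library. Against ADAR1i-124 alone, the combination was at least 2-fold higher for 6 of 10 members, with a background of 9.91% of 13708 genes and a median of 1.06 against 0.00. Atf3 was at 11.1 CPM with ADAR1i-124 and 66.6 CPM with the combination, a difference of 2.54 (2.34 to 2.85). Egr1 was at 46.6 and 169 CPM, a difference of 1.85 (1.73 to 1.99), and Junb at 24.1 and 86.5 CPM, a difference of 1.82 (1.66 to 2.03). In the same libraries leukocyte markers summed to 13.3 and 55.1 CPM, mainly Cd68 (13.0 and 53.2), epithelial markers to 0.341 and 10.6 CPM and fibroblast markers to 504.9 and 258.9 CPM. Of the fibroblast markers, Col1a2 (113.9 and 52.7 CPM) and Col3a1 (376.3 and 168.1 CPM) were lower with the combination. Higher were Col1a1 (1.64 and 20.9 CPM), Dcn (0 and 16 counts) and Pdgfra (13.0 and 15.4 CPM, with an interval across 0). The part of all these markers in the differences was not tested. Against 5-Aza-CdR alone, where 2.28% of 14365 genes were at least 2-fold higher and 7.11% as much lower, Junb (1.82) and Atf3 (1.13) were higher, and Egr3 (-1.78), Fos (-1.61) and Fosb (-1.34) were lower. With TMM or DESeq2 scaling 5 members were at least 2-fold higher, where 3.79% and 3.62% of all genes were.

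**Figure D4:**
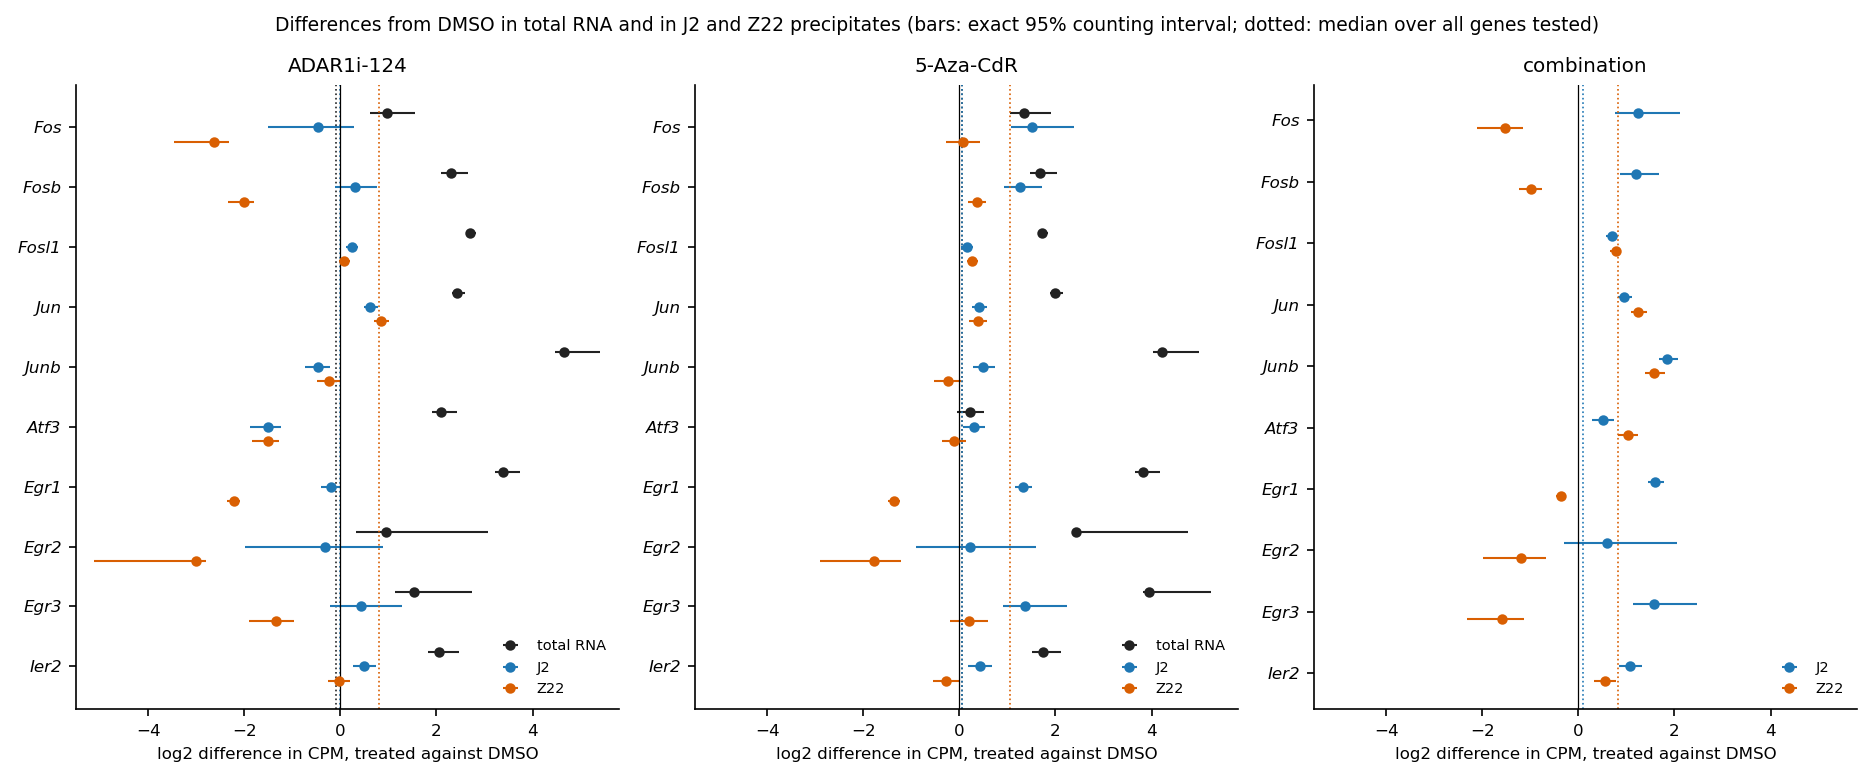
Log2 difference in CPM from DMSO of each member (rows) for ADAR1i-124, 5-Aza-CdR and their combination (panels), in total RNA (black), J2 (blue) and Z22 (orange). Bars are exact 95% intervals of the count ratio, and dotted lines are the medians over all genes tested. With ADAR1i-124 the black points lie from 0.94 to 4.65, the blue from -1.51 to 0.62 and the orange from -3.01 to 0.85.

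Set against total RNA of the same treatment, most members were higher in the precipitates with DMSO and lower with ADAR1i-124. By the study's description, RNA to be precipitated was first digested with DNase and with RNase I, which cuts single-stranded RNA. No such step is described for total RNA. Its part in differences between total RNA and the precipitates was not tested. With DMSO, 9 of 10 members were at least 2-fold higher in Z22 than in total RNA (background 6.61% of 13192 genes), with a median of 2.35 against -1.18, and Egr1 had the largest difference, 4.77 (4.60 to 5.12), at 7.52 CPM in total RNA and 218 CPM in Z22. With TMM, DESeq2 or totals without the 20 highest genes, all 10 were, where 19.7%, 24.3% and 15.7% of all genes were. In J2, on library totals, 4 of 10 were at least 2-fold higher (background 5.56%), Junb (2.97), Egr1 (1.93), Ier2 (1.56) and Atf3 (1.41). With ADAR1i-124, none was at least 2-fold higher in either precipitate (background 5.04% in J2 and 4.68% in Z22), and 7 were at least 2-fold lower in J2 (14.7%) and 5 in Z22 (11.8%). Fosl1, at 349 CPM in total RNA, 91.0 in J2 and 125 in Z22, was an example. With 5-Aza-CdR, Atf3 was at least 2-fold higher in J2 (1.49, background 4.94%) and in Z22 (1.52, background 7.01%) than in total RNA, and Fosb was in Z22 (1.22). Egr3 (-1.84), Egr2 (-1.59) and Fosl1 (-1.04) were at least 2-fold lower in J2 than in total RNA (background 18.9%), and Junb (-1.12) was in Z22 (14.2%), though not with DESeq2 scaling. Intervals lay below 0 for 8 of 10 members in J2 and for 6 of 10 in Z22, where 69.4% and 61.4% of all genes were below 0 by any amount. Markers of other cell types differed between total RNA and the precipitates as well. Fibroblast markers summed to 1283 CPM in total RNA, 1562 in J2 and 1936 in Z22 with DMSO, to 488.7, 290.3 and 504.9 CPM with ADAR1i-124 and to 1527, 210.6 and 199.8 CPM with 5-Aza-CdR. Leukocyte markers summed to 8.64, 60.2 and 15.7 CPM with DMSO, to 20.5, 7.08 and 13.3 CPM with ADAR1i-124 and to 77.9, 18.4 and 41.6 CPM with 5-Aza-CdR, and epithelial markers to 4.17, 30.5 and 22.8 CPM with 5-Aza-CdR. Their part in these differences was not tested.

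Over all genes, the difference between ADAR1i-124 and DMSO in total RNA was almost unrelated to that in the precipitates. Across 13678 genes the Pearson correlation between total RNA and J2 was 0.13, and across 13372 genes it was 0.01 between total RNA and Z22. For 5-Aza-CdR the correlations were 0.24 across 14277 genes and 0.06 across 14198 genes. Genes are not independent replicates and these are descriptions. The members had the same sign in total RNA and J2 in 5 of 10 cases with ADAR1i-124 and in 10 of 10 with 5-Aza-CdR, where 51.1% and 50.1% of all genes did. Between total RNA and Z22 it was 2 of 10 and 5 of 10, where 44.6% and 50.9% of all genes did.

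Read across the 12 libraries, the members had no common profile. Fosl1 and Jun were highest in total RNA of ADAR1i-124 (349 and 165 CPM), Egr3 in total RNA of 5-Aza-CdR (23.7 CPM), Egr1 and Egr2 in Z22 of DMSO (218 and 7.91 CPM), Fos and Fosb in Z22 of 5-Aza-CdR (17.4 and 59.1 CPM), and Junb, Ier2 and Atf3 in Z22 of the combination (86.5, 41.9 and 66.6 CPM). The interval of Fos in Z22 of 5-Aza-CdR overlapped that in Z22 of DMSO, and those of Junb and Ier2 in Z22 of the combination overlapped those in J2 of the combination. Total RNA of DMSO was the lowest library for 6 of the 10, Egr1, Egr2, Egr3, Ier2, Jun and Junb, and IgG for Fos, Fosb and Fosl1. The lowest level overlapped the next one for Fos, Fosl1, Egr2, Egr3 and Atf3. Atf3 was lowest in J2 of ADAR1i-124, at 8.06 CPM, close to its 8.64 CPM in total RNA of DMSO.

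**Figure D5:**
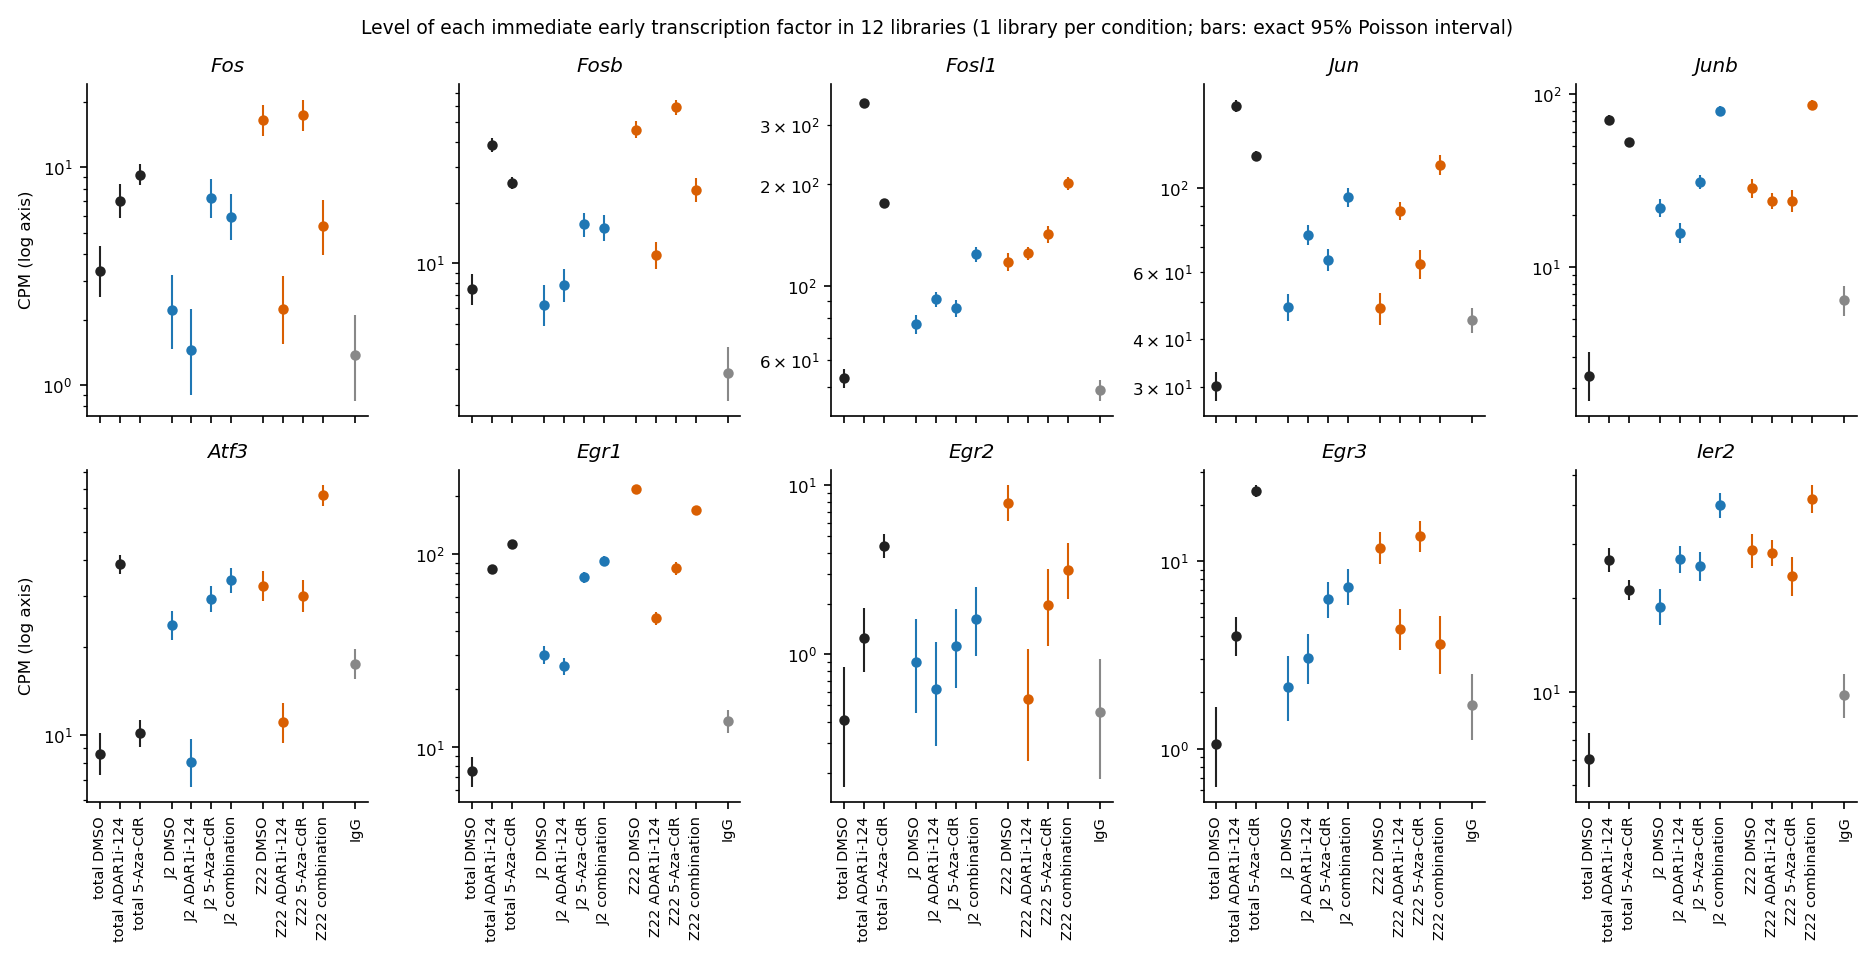
Level of each member in CPM (log axis, with its own range in each panel) in total RNA (black), J2 (blue), Z22 (orange) and IgG (grey) libraries, 1 point per library with its exact 95% Poisson interval. Egr1 runs from 7.52 CPM in total RNA of DMSO to 218 CPM in Z22 of DMSO, and Junb from 2.35 CPM in total RNA of DMSO to 86.5 CPM in Z22 of the combination.

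The genes most like Fos and Egr1 over 11 libraries (IgG left out, each set centred on its own mean) were sought among 10422 genes that averaged 5 CPM or more. For Fos they were the mitochondrial glutamate carrier gene Slc25a22 (Pearson r = 0.93), Fosb (0.89) and Mgea5 (0.89), which encodes the enzyme that removes O-GlcNAc from proteins. For Egr1 they were Fam214b, Rnf44 and Abcc10, each at 0.97. Fosb was the only member among the 3 genes closest to either. Of the members, Junb was closest to Egr1 (0.88), followed by Ier2 (0.83), and Fos had a correlation of 0.07 with Jun. Libraries of a set share their precipitation, and these values describe the 11 libraries and carry no test.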

How the data were processed

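The deposited table held raw read counts per Ensembl gene, 1 column for each of 13 libraries (Illumina Standard Total RNA Prep with Ribo-Zero Plus, paired-end, as the authors describe), and no column was left unmapped (0). By the submitters' processing notes, the authors aligned reads to GRCm38 (mm10) with STAR in snakePipes 2.8.0; the counting tool and its strand setting are not given in the sources used here. The authors' counts were used as deposited and 12 libraries entered comparisons. CPM was computed here from library totals. Differences are log2(CPM + 0.5), and with 1 library per condition no model was fitted. Background shares and medians cover genes that averaged 1 CPM or more in the 2 libraries compared, and counts and medians of the members cover all 10. Symbols came from GENCODE M21 (54409 of 54532 rows had one).

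The members and the 11 other gene lists were chosen with earlier results of these data known. The rule for names was all 10 members, at most 4 genes of each other list with the largest absolute difference in the comparison described, the 3 genes closest to Fos and to Egr1, and genes that overlap a member. Counting intervals are exact (95%). A floor of 3 counts was set apart from them, and the exact interval of a count of 0 reaches above it. Alternatives were edgeR 4.0.16 TMM factors, DESeq2 1.42.0 size factors (both for scaling only), totals without the 20 highest genes, pseudocounts of 0.1 and 2 CPM, a 4-fold line, and filters of none and 10 CPM. Counting and intervals were tested on simulated data. Python 3.11.15, scipy 1.17.1 and R 4.3.3 were used.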

Additional observations from a re-analysis of the deposited data

Results flagged for a closer look

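Some members differed from DMSO in opposite directions in 2 of the sets of libraries (total RNA, J2 and Z22), each by at least 2-fold and with counting intervals that exclude 0. With 1 library per condition the difference between the sets was not tested. With ADAR1i-124, Fosb was at 2.30 in total RNA and -2.02 in Z22, Egr1 at 3.39 and -2.21, and Egr3 at 1.52 and -1.34. Atf3 was at 2.10 in total RNA, -1.51 in J2 and -1.52 in Z22. With 5-Aza-CdR, Egr1 was at 3.82 in total RNA and 1.32 in J2 but -1.36 in Z22, and Egr2 was at 2.43 in total RNA and -1.77 in Z22. With the combination, Fos was at 1.25 in J2 and -1.54 in Z22, and Egr3 at 1.57 and -1.58. All Z22 values share the Z22 library of DMSO, in which Gm42418 took 34.9% of the counts, and its part in them was not tested. Atf3 in J2 does not involve that library.

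The total RNA library of the combination, which entered no comparison, held a signal for Junb of 95.5 CPM (119 of 1245894 counts), while Fos, Egr3 and Atf3 had none. The floor of 3 counts is 2.41 CPM in that library, and the exact 95% interval of a count of 0 reaches 2.96 CPM. Prdx2, which overlaps Junb on the other strand, had 29 counts in that library, where 22.6% of the counts fell in antisense genes, so that the value is not read as a level of Junb.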

How the results depend on the processing

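No paired analysis was possible because each comparison given has 1 library on either side, and leaving out a replicate was not possible for the same reason. Against DMSO, and for DMSO against IgG, no sign of a member's difference depended on an alternative in total RNA, in J2, or in Z22 of DMSO against IgG. In Z22 against DMSO it did for 5 members with 5-Aza-CdR, 2 with ADAR1i-124 and 2 with the combination, as other scalings moved the median of all genes there, from 1.06, 0.81 and 0.82 on library totals to 0.07, 0.01 and 0.03 with DESeq2 size factors. The median of the members ranged from 2.02 to 2.44 in total RNA of ADAR1i-124, from 1.61 to 2.0 in total RNA of 5-Aza-CdR, from -2.28 to -0.24 in Z22 of ADAR1i-124 (the latter with only members of at least 10 CPM) and from -0.76 to 0.66 in Z22 of the combination. With a 4-fold line, members past it numbered 4 higher in total RNA of 5-Aza-CdR, where 5.98% of all genes were. Past it were 0 members in J2 with ADAR1i-124 (lower, 2.71% of all genes), with 5-Aza-CdR (higher, 3.02%) and with the combination (higher, 2.83%). In Z22 it was 0 with 5-Aza-CdR (lower, 0.926%) and with the combination (14.2% of all genes higher and 1.02% lower). In J2 of DMSO against IgG 0 members were higher by as much (2.81%). With TMM or DESeq2 factors, 5 were at least 2-fold lower in Z22 with 5-Aza-CdR (16.2% and 18.5% of all genes), and in Z22 with the combination 5 were lower (14.7% and 17.7%) and 0 higher (23.2% and 20.1%). Without the 20 highest genes, 1 was higher in Z22 with the combination (32.2% of all genes) and 4 in J2 of DMSO against IgG (15.7%). With a minimum mean of 10 CPM, 2 of 7 members left were higher in J2 with 5-Aza-CdR (5.35% of all genes left), 3 of 7 lower in Z22 with ADAR1i-124 (4.45%), 1 of 9 lower in Z22 with 5-Aza-CdR (3.98%), 1 of 8 lower in Z22 with the combination (5.13%) and 5 of 7 higher in Z22 of DMSO against IgG (10.4%). In Z22 of ADAR1i-124, the share of all genes at least 2-fold higher was 42.9% on library totals, 23.3% with TMM and 18.9% with DESeq2, and the share at least 2-fold lower was 5.13%, 13.8% and 17.8%. These are the 21 medians and counts over the members that moved, and the other 239, among them all under a filter of 1 CPM on the members that was chosen after seeing the data, stayed within 1.5 times the count or, for medians, within the 95% order-statistic interval over the members. Of the differences of single members under other scalings and pseudocounts, 110 lay outside the counting interval of the reported value and 390 within it. The comparisons of treated libraries with each other, with IgG and with total RNA were run under the 3 other scalings only, an alternative chosen after seeing the data, and 91 of their counts stayed within 1.5 times and 5 did not. In Z22 of the combination against 5-Aza-CdR 5 members were at least 2-fold higher with TMM or DESeq2 and 4 without the 20 highest genes (3.79%, 3.62% and 3.18% of all genes), and in Z22 against total RNA of 5-Aza-CdR 0 were at least 2-fold lower with DESeq2 or without the 20 highest genes (9.63% and 9.98%). Among these comparisons the sign depended on the scaling for Fosb in J2 against total RNA of DMSO and for Fos in that of 5-Aza-CdR. Depth limits Egr2 most, with 7 to 152 counts in the 12 libraries.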
